A study of Mus musculus with 3 samples.

Results

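The genes described here handle oxidants, glutathione and sulphur in CT26.WT, an established mouse colon carcinoma line. They are 39 listed genes in 8 groups: NRF2 and its regulators, quinone and haem enzymes, glutathione supply, glutathione use, thioredoxin and peroxiredoxin genes, NADPH supply, superoxide and peroxide removal, and sulphide and sulphite oxidation. Members were the probe sets whose only gene symbol in the platform annotation was 1 of the listed symbols. This gave 77 probe sets for 35 of the 39 genes, out of 18193 genes named on the array. Prdx1, Prdx5, Prdx6 and G6pdx had none and were not analysed here.

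The cultures were treated with recombinant mouse S100a8, with recombinant mouse S100a9, or as a control, and each group held 1 culture on 1 Affymetrix Mouse Genome 430 2.0 array. Both proteins, which myeloid cells release in inflammation, were given at 4 µg/ml for 24 h after 12 h in medium without serum. The control culture also had 12 h in medium without serum. The control's title names bovine serum albumin, whereas saline is named in its description and in the series design, and the labels give the 24 h for the proteins only. With 1 array in each group there was no estimate of the spread between cultures and no test, and every ratio below compares single arrays.

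NRF2, encoded by Nfe2l2, is a transcription factor that KEAP1 holds at a low level by marking it for degradation. Oxidants and electrophiles release it from KEAP1, after which it enters the nucleus, pairs with small MAF proteins and binds antioxidant response elements near its target genes. Those targets make glutathione, recycle thioredoxin, supply NADPH and break down haem. Sulphide and sulphite are oxidised in mitochondria by a separate set of enzymes, in which sulphide quinone oxidoreductase acts first and sulphite oxidase last.

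Start-site windows are shown for genes that had the largest differences from control (Suox, Sqor, Srxn1 and Sqstm1) and for Txnrd1 and Gclm, known NRF2 targets with a window that held the searched letters. Each runs from 250 bases before to 50 bases after a start in RefSeq, build GRCm38.p6, is read 5′ to 3′ on the gene's own strand, and covers the start site of the gene named. Capitals mark TGACNNNGC, the core of the antioxidant response element, on either strand, and TGAGTCAGC, a related form that overlaps the AP-1 site.
Suox, chr10:128673869-128674168, minus strand: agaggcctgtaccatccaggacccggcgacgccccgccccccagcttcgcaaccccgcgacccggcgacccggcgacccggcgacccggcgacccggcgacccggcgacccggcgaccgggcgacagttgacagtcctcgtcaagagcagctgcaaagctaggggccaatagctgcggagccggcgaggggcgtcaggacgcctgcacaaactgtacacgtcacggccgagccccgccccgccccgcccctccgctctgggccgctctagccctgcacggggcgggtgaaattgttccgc
Sqor, chr2:122771463-122771762, plus strand: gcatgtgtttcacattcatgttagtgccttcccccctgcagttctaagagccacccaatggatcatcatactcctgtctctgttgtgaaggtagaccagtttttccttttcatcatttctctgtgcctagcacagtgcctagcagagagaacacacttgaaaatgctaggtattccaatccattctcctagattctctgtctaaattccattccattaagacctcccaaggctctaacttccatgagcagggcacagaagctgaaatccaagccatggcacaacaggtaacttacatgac
Srxn1, chr2:152105274-152105573, plus strand: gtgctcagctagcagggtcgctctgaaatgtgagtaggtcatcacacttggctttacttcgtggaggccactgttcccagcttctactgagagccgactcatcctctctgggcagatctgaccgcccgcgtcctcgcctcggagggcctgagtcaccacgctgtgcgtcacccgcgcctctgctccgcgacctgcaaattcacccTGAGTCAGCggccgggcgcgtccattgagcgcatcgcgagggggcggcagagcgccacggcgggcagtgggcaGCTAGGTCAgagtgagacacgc
Txnrd1, chr10:82858956-82859255, plus strand: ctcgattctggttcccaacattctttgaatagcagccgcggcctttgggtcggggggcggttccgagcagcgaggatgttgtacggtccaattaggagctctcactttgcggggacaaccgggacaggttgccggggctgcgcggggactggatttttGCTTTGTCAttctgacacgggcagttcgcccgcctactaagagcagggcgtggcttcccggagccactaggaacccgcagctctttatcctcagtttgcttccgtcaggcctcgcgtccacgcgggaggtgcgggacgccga
Gclm, chr3:122245307-122245606, plus strand: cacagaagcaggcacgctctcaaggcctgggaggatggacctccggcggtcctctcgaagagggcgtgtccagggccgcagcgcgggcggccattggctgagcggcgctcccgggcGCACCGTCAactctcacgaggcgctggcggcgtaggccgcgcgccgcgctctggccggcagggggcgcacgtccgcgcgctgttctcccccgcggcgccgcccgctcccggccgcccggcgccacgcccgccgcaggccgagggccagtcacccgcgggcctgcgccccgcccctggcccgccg
Sqstm1, chr11:50210771-50211070, minus strand: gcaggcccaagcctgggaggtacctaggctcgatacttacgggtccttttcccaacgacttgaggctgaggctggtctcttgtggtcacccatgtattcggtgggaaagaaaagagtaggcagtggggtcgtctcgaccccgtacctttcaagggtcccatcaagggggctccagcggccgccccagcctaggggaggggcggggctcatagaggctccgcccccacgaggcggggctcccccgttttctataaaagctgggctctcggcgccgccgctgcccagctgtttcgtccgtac

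RefSeq windows were given for 33 of the 39 genes, 43 windows in all. TGACNNNGC was in the windows of 11 of these genes, and in 11 of the 43 windows. It was in 12.4% of 32851 windows of the same length over all genes. The stricter TGACTCAGC, which holds the AP-1 site TGACTCA, was in 2 of the 43 windows and in 0.454% of all windows. TGAGTCAGC was added after the Srxn1 window had been read. It was in 1 of the 43 windows, that of Srxn1, where it began 45 bases before the start, and in 0.414% of all windows. The window of Srxn1 also held TGACNNNGC on the minus strand, 28 bases after the start. The windows shown for Txnrd1 and Gclm held it 92 and 134 bases before the start. The other windows given for Txnrd1 held neither form, nor did those of Nqo1, Slc7a11, Txn1 and Taldo1. The windows of Suox, Sqor and Sqstm1 hold neither form, which says nothing of sites outside these windows. Among compared members, the 9 with a match had median log2 ratios to control of 0.17 with S100a8 and 0.14 with S100a9. The 21 without one had medians of 0.11 and 0.10. With S100a8, 7 of the 9 and 16 of the 21 were above control, and with S100a9 9 and 16 were. The range with a match lay within that without one for each protein (−0.076 to 0.57 against −0.57 to 0.91 with S100a8). Abcc1, Gclc, Gsr, Gsta4 and Hmox1 had no window and are in neither set. Whether the sets differ was not tested.

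Signals are intensities on a linear scale, as deposited. Values below 76.0, the median of all probe set values, were set to that floor before log2 was taken, and each gene was represented by its brightest probe set. All 35 members lay above the floor on each of the 3 arrays. A gene counted as compared when its mean lay above the floor, which held for 11138 named genes. A log2 ratio of 0.32, which is an increase of 25%, or of −0.32 served as a descriptive size.

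Most members had slightly higher signals than control with either protein, and a few stood further off. The members were chosen with earlier results of these data known, so comparing them with all genes is not an independent test. With S100a8, 28 of 35 members were above control, against 52.5% of all compared genes, and their median log2 ratio was 0.13, against 0.012 for all compared genes. Of the 35, 6 were higher by at least 0.32 in log2 (9.48% of all compared genes) and 1 was lower by as much (8.01%). With S100a9, 29 of 35 were above control (51.2% of all compared genes), with a median log2 ratio of 0.11, against 0.0045 for all. Here 7 were higher by at least 0.32 (3.23% of all compared genes) and 1 was lower by as much (5.04%). These counts and shares depended on scaling. With each array centred on its median, 9 members were higher by at least 0.32 with S100a8, beside 12.6% of all compared genes, and 1 was lower, beside 6.27%. After quantile normalization 8 members were higher with S100a8, beside 10.5%, and 1 was lower, beside 6.86%. With centring by brightness 5 members were higher with S100a8, beside 6.47%, and 1 was lower, beside 9.09%. For S100a9 the counts stayed at 7 and 1 under these scalings, beside 4.41% higher and 4.01% lower after quantile normalization. Of 33 further probe sets above the floor, from 22 members, 25 had the same direction as the brightest one and 8 the opposite in each comparison with control. The genes with an opposite one were Abcc1, Gstm1, Keap1, Prdx2, Prdx4, Sod1 and Sod2 for S100a8, and Abcc1, Cat, Gclm, Gstm1, Nfe2l2, Sod1 and Txn2 for S100a9. Between probe sets of 1 gene, log2 ratios to control had an SD of 0.21 for S100a8 and 0.18 for S100a9. A single gene's ratio of the size of the members' medians lies within that spread. Both sets of ratios use the same control array, so a signal that was low or high on that array alone would move both ratios of a gene the same way.

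**Figure D1:**
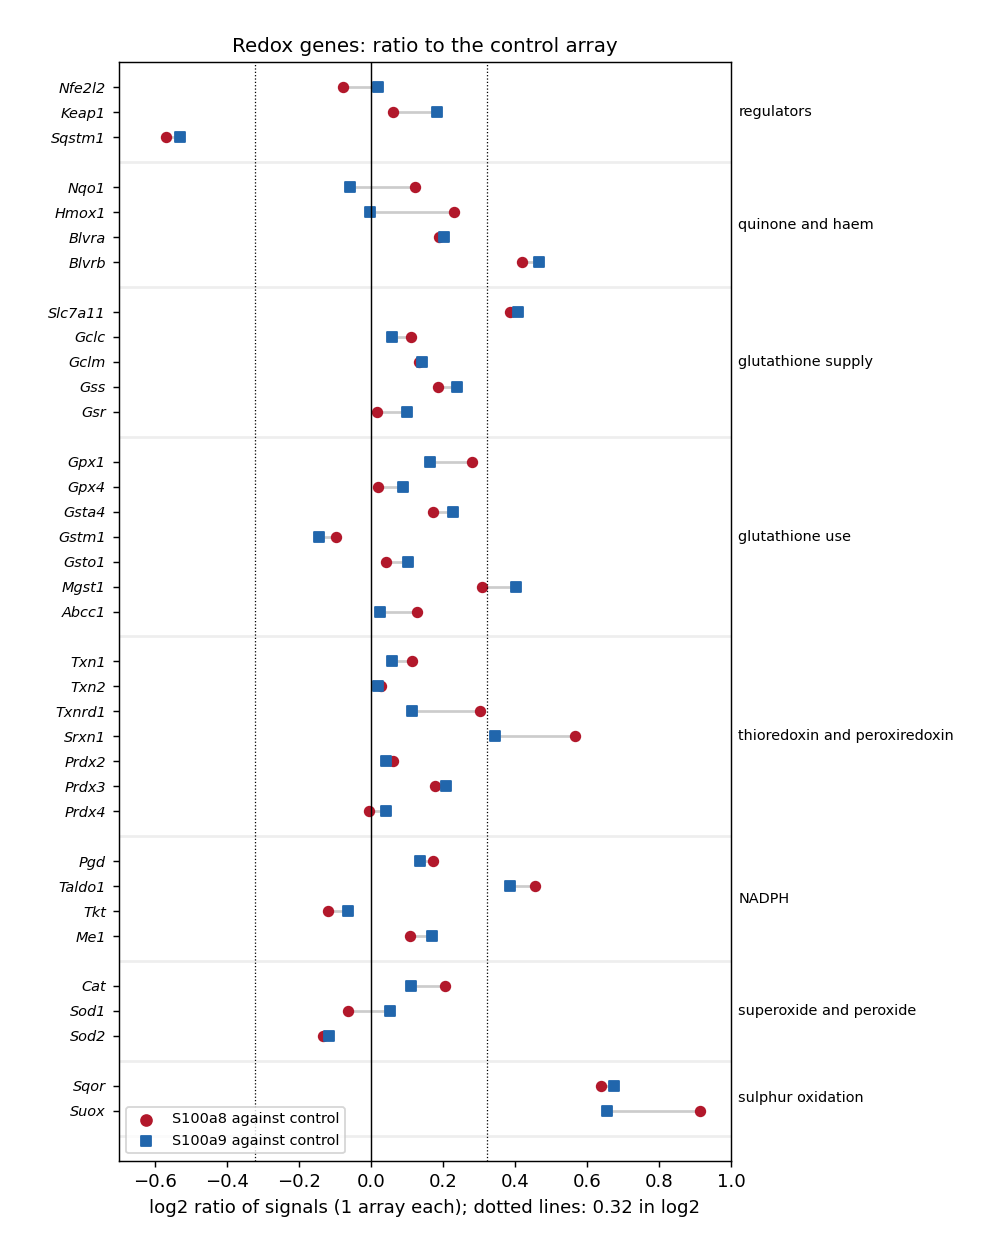
Log2 ratio of each of the 35 compared members to control, for S100a8 (red circles) and S100a9 (blue squares), by group; each point compares 1 array with the 1 control array, and dotted lines mark log2 ratios of 0.32 and −0.32. Most points lie just right of 0, Suox and Sqor lie furthest right and Sqstm1 lies alone on the left at −0.57 and −0.53.

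The largest differences among the members were those of Suox and Sqor, the 2 listed genes for sulphide and sulphite oxidation. Suox, sulphite oxidase, which turns sulphite into sulphate in the mitochondrial intermembrane space, had a signal of 899.9 on the S100a8 array and 753 on the S100a9 array, against 478 on the control array. It was 1.88-fold above control with S100a8 (log2 ratio 0.91) and 1.57-fold with S100a9 (0.65). Sqor, which oxidises sulphide and passes electrons to ubiquinone, had signals of 1680.0 with S100a8 and 1723 with S100a9, against 1079 in the control. It was 1.56-fold above control with S100a8 (0.64) and 1.60-fold with S100a9 (0.67). Both treated arrays thus lay well above the control for each gene. Among the 11138 compared genes, counted from the highest ratio, Suox ranked 9 with S100a8 and 16 with S100a9, and Sqor ranked 80 and 10. Both genes were listed with earlier results of these data known. Suox and Sqor were the 2 members at least 1.5-fold higher in either comparison (1.13% of all compared genes with S100a8 and 0.251% with S100a9), and 0 members were 1.5-fold lower (1.91% and 0.853%). Each of these genes rests on 1 probe set above the floor, and the further probe set of Sqor lay below the floor, at 27.7 with S100a8 and 27.1 with S100a9, against 29.3 in the control.

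Sqstm1 stood on the other side of control. It encodes p62, an autophagy receptor that can bind KEAP1 and is itself a known NRF2 target. Its signals were 3517 with S100a8 and 3611 with S100a9, against 5214 in the control, which is 1.48-fold lower (log2 ratio −0.57) and 1.44-fold lower (−0.53). A dimmer probe set of Sqstm1 went the same way, with 113 and 125 on the treated arrays and 224 on the control array. It was the 1 member at least 0.32 below control in either comparison. Nfe2l2 itself differed little, at 3513 with S100a8 and 3755 with S100a9, against 3704 in the control (log2 ratios −0.076 and 0.020), and its dimmer probe set was at −0.28 and −0.018. Keap1 had 874 and 951, against 837 in the control (0.062 and 0.18). The messenger levels of NRF2 and of its inhibitor therefore lay within 0.32 of control in log2 on both arrays, and protein levels were not measured.

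**Figure D2:**
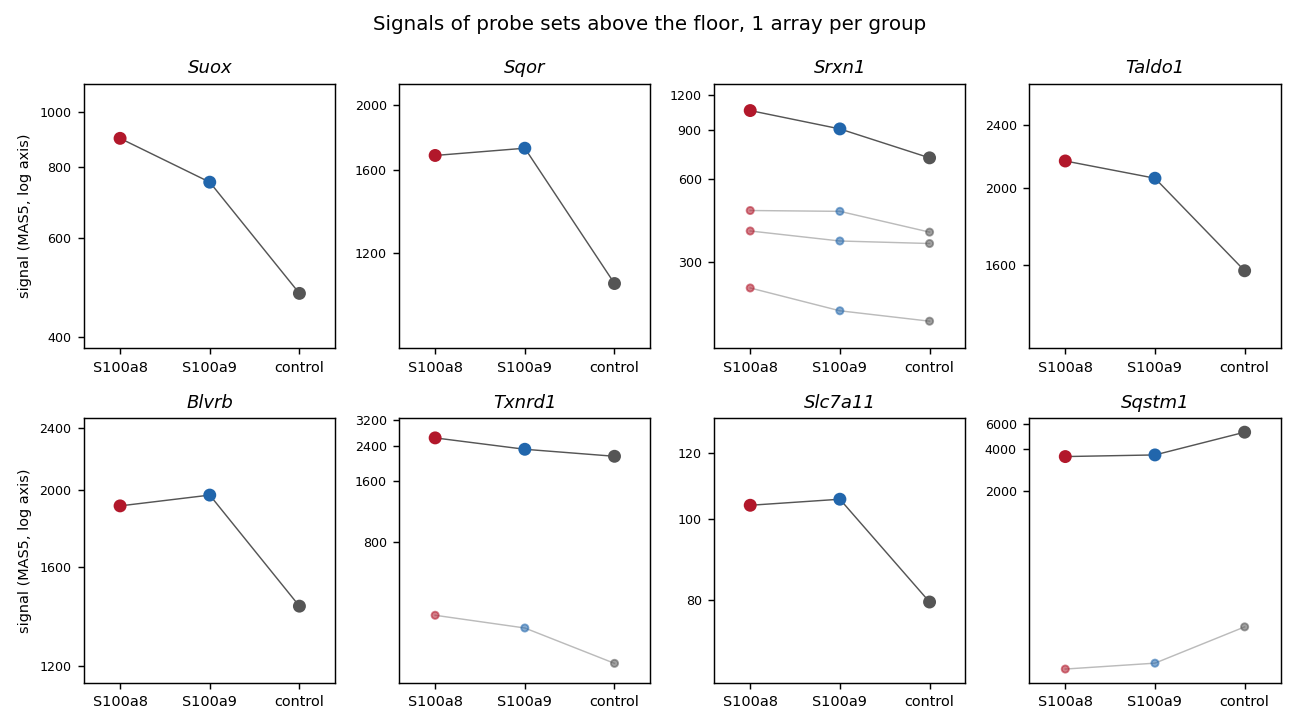
Signals (deposited MAS5 intensities, log axes that differ between panels) of 8 members on the S100a8, S100a9 and control arrays; large points are the brightest probe set and small points further probe sets above the floor. Suox, Sqor, Srxn1, Taldo1, Blvrb, Txnrd1 and Slc7a11 are lowest on the control array, and both probe sets of Sqstm1 are highest there.

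Of 7 compared thioredoxin and peroxiredoxin genes, 6 were above control with S100a8 (52.5% of all compared genes) and 7 with S100a9 (51.2%). Their median log2 ratios were 0.11 and 0.060. Srxn1, sulfiredoxin, which repairs overoxidised peroxiredoxins, had signals of 1056 with S100a8 and 907 with S100a9, against 714 in the control. This is 1.48-fold (0.57) and 1.27-fold (0.35) above control, in the order S100a8, S100a9, control. Its 3 further probe sets kept that order, with smaller log2 ratios of 0.15 to 0.40 with S100a8 and of 0.030 to 0.25 with S100a9. With the mean of its probe sets Srxn1 was at 0.34 and 0.19. Txnrd1, the cytosolic thioredoxin reductase, read 2621 and 2301, against 2124 in the control (0.30 and 0.12). A second, dimmer probe set of Txnrd1 showed larger log2 ratios of 0.79 and 0.58. Txn1, cytosolic thioredoxin, was close to control (0.11 and 0.060), as were its mitochondrial relative Txn2 (0.028 and 0.021) and the peroxiredoxin Prdx2 (0.062 and 0.043). Prdx3, the mitochondrial peroxiredoxin, was at 0.18 and 0.21. Prdx4, a peroxiredoxin of the endoplasmic reticulum, had 4342 and 4478, against 4353 in the control, on its brightest probe set (−0.0037 and 0.041). With S100a8, 2 further probe sets of Prdx4 were higher (0.31 and 0.35), so its probe sets disagreed.

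All 5 glutathione supply genes were above control with each protein (52.5% of all compared genes with S100a8 and 51.2% with S100a9). Their medians were 0.13 for S100a8 and 0.14 for S100a9. Slc7a11, the cystine carrier that feeds glutathione synthesis, had signals of 104 with S100a8 and 106 with S100a9, against 79.6 in the control (0.39 and 0.41). Its control signal lay just above the floor of 76.0, where MAS5 values are noisy. With centring by brightness its log2 ratio with S100a8 was 0.18, and it was not compared with the floor at the 65th percentile or with the mean of its probe sets. The other 4 genes differed by less than 0.32 in log2. Gss, glutathione synthetase, had log2 ratios of 0.19 with S100a8 and 0.24 with S100a9, and its further probe set had 0.29 and 0.31. Gclc, the catalytic subunit of glutamate-cysteine ligase, was at 0.11 and 0.057, and Gclm, its modifier subunit, at 0.13 and 0.14. A dimmer probe set of Gclm was at 0.015 and −0.079, below control with S100a9. Gsr, which reduces oxidised glutathione, was at 0.017 and 0.10.

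Of the 7 genes that use or export glutathione, 6 were above control with each protein (medians 0.13 and 0.10). Over all compared genes 52.5% were above control with S100a8 and 51.2% with S100a9. Mgst1, a membrane-bound glutathione transferase, had signals of 328 with S100a8 and 351 with S100a9, against 265 in the control (0.31 and 0.40). With the mean of its probe sets Mgst1 was at 0.20 with S100a9. Gpx1, the cytosolic glutathione peroxidase, had 3153 and 2909, against 2596 in the control (0.28 and 0.16). Gsta4, which conjugates lipid aldehydes, was at 0.17 and 0.23. Gpx4, which reduces lipid peroxides, was at 0.021 and 0.091, the omega-class transferase Gsto1 at 0.043 and 0.10 and Abcc1, an exporter of glutathione conjugates, at 0.13 and 0.026. The further probe set of Abcc1 was below control with both proteins (−0.060 and −0.21). Gstm1, a mu-class transferase, was the exception at −0.097 and −0.14. Of its 3 further probe sets 2 were also below control, while a dim one was above it (0.50 and 0.12). Mu-class transferases have similar sequences, and some of these probe sets can bind more than 1 transcript.

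The quinone and haem group was uneven. Blvrb, a biliverdin and flavin reductase, had signals of 1911 with S100a8 and 1972 with S100a9, against 1428 in the control, or 1.34-fold (0.42) and 1.38-fold (0.47) above control. Its relative Blvra was at 0.19 and 0.20. Both reductases were thus above control on each treated array. Hmox1, haem oxygenase 1, which breaks down haem, had 465 with S100a8 and 395 with S100a9, against 396 in the control (0.23 and −0.0024). Nqo1, a quinone reductase widely used as a readout of NRF2 activity, had 172 and 151, against 158 in the control (0.12 and −0.059). Each of these 4 genes was measured by 1 probe set.

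Of the 4 compared NADPH supply genes, 1 differed from control by at least 0.32. Over all compared genes 9.48% were as far above control with S100a8 and 3.23% with S100a9, and 8.01% and 5.04% as far below. Taldo1, transaldolase of the non-oxidative pentose phosphate pathway, had signals of 2163 with S100a8 and 2058 with S100a9, against 1576 in the control, or 1.37-fold (0.46) and 1.31-fold (0.39) above control. Tkt, transketolase, which works beside it in the same branch, was below control (−0.12 and −0.064), and its further probe set above the floor was lower too (−0.17 and −0.13). Pgd, an NADPH-producing enzyme of the oxidative branch, was at 0.17 and 0.14 and Me1, cytosolic malic enzyme, at 0.11 and 0.17. All 3 further probe sets of Pgd and the further one of Me1 were also above control on both treated arrays.

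Genes that remove superoxide and hydrogen peroxide lay near control. Cat, catalase, had signals of 1035 with S100a8 and 968 with S100a9, against 896 in the control (0.21 and 0.11). A further probe set of Cat read 935 and 559.5, against 626 in the control (0.58 and −0.16), so the probe sets disagreed for S100a9. Sod1, the cytosolic superoxide dismutase, was at −0.064 and 0.053 on its brightest probe set. Of its 3 further probe sets above the floor, a dim one read −0.46 for S100a8 and −0.013 for S100a9, the next −0.064 and −0.14, and the brightest of them 0.0049 and 0.073. The direction was thus not shared between its probe sets. Sod2, the mitochondrial one, had 2554 and 2580.4, against 2798 in the control (−0.13 and −0.12). Of its further probe sets above the floor on each array, the brighter was at 0.029 and −0.098 and the dimmer at −0.070 and −0.23.

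On their brightest probe sets, signals of these genes with S100a8 and with S100a9 lay close together. Of the 35 members, 15 had a higher signal with S100a8 than with S100a9 (45.1% of all compared genes), and the median log2 ratio of S100a8 over S100a9 was −0.015, against −0.018 for all compared genes. On these probe sets no member differed by 0.32. With S100a8, 0 were that much higher (7.82% of all compared genes, 5.48% after centring by brightness) and 0 that much lower (2.00%, 3.04%). Some further probe sets did differ by that much: Cat had one at 0.74, Sod1 a dim one at −0.45 and Gstm1 a dim one at 0.38. Of the 33 further probe sets, 22 had the same direction as the brightest one and 11, from 9 genes, the opposite. The highest log2 ratios of S100a8 over S100a9 were those of Suox (0.26), Hmox1 (0.23), Srxn1 (0.22), Txnrd1 (0.19) and Nqo1 (0.18). The lowest were those of Keap1 (−0.12) and Sod1 (−0.12). Ratios of this size lie near the spread between probe sets of 1 gene, which had an SD of 0.18 for this comparison, and without replicate arrays they do not show that the proteins act alike.

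**Figure D3:**
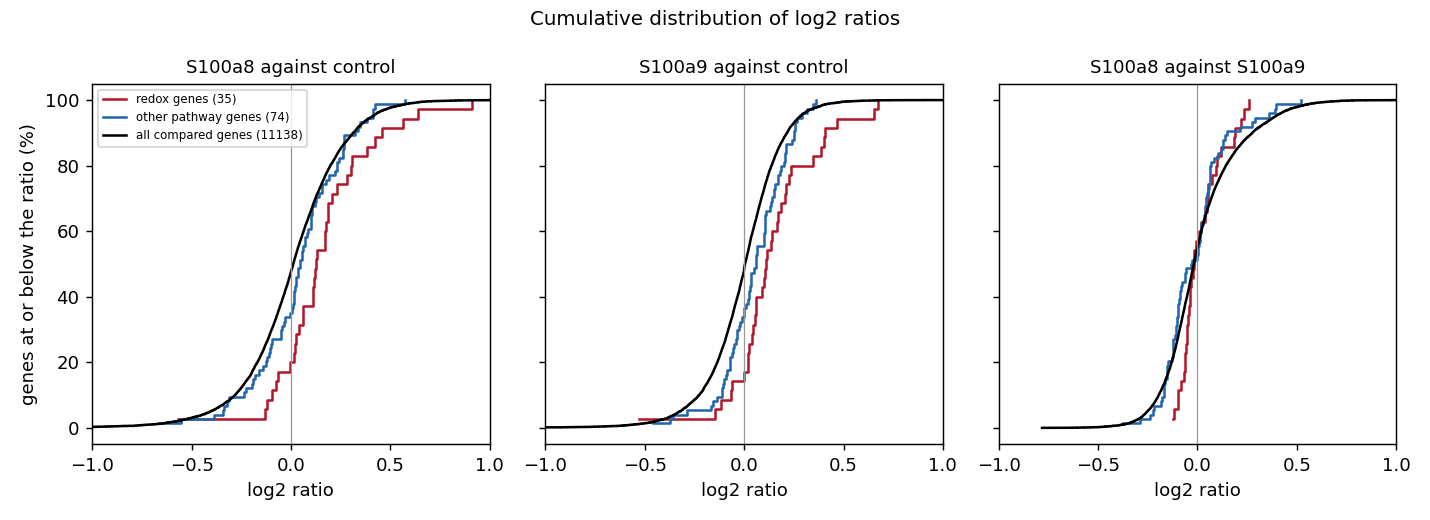
Cumulative share of genes (percent) at or below each log2 ratio for the 35 redox genes (red), 74 other pathway genes (blue) and all 11138 compared genes (black), for S100a8 against control, S100a9 against control and S100a8 against S100a9. The redox genes lie to the right of all compared genes in both comparisons with control, with medians of 0.13 and 0.11, and within −0.12 and 0.26 between the proteins. They were chosen with earlier results of these data known, and each is shown by its brightest probe set.

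Further genes of these pathways, none of them a member, differed less from all compared genes. Of 101 listed, 97 had a probe set and 74 were compared. With S100a8, 48 of 74 were above control (52.5% of all compared genes), 7 by at least 0.32 (9.48%), and 5 were lower by as much (8.01%), with a median log2 ratio of 0.046. With S100a9, 47 of 74 were above control (51.2%), 2 by at least 0.32 (3.23%), and 3 were lower by as much (5.04%), with a median of 0.060. The counts past 0.32 were thus near the shares over all compared genes. Of the 11 compared regulators 4 were above control with each protein, beside 52.5% and 51.2% of all compared genes. Maff, a small MAF partner of NRF2, had signals of 945 with S100a8 and 1011 with S100a9, against 1389 in the control (−0.55 and −0.46). Rbx1, the RING subunit of cullin ubiquitin ligases including that of KEAP1, was at −0.66 and −0.37 on a single dim probe set.

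The remaining genes at either end included several with roles next to the members. With S100a8 the highest were Mocs1, which acts in the first step of molybdenum cofactor synthesis (0.58), Osgin1, an oxidative stress-induced gene (0.42), and Bach2, a repressor that also pairs with small MAF proteins (0.42). Mocs1 and Bach2 were dim, with signals of 134 and 152 in the control, and their further probe sets lay below the floor. With S100a9 the highest were Gpx8, a peroxidase of the endoplasmic reticulum (0.36), Mocs2, a subunit gene of molybdopterin synthase (0.35), and the microsomal transferase Mgst3 (0.315, just below the descriptive size). Sulphite oxidase needs the molybdenum cofactor. Mocs1 had log2 ratios of 0.58 and 0.18 with S100a8 and S100a9, and Mocs2 of 0.26 and 0.35, although a dim further probe set of Mocs2 was at −0.12 and 0.078. The other compared genes of cofactor synthesis in the list lay near control, with Gphn, gephyrin, at 0.054 and −0.0086 and Mocs3 at −0.031 and −0.059. Gphn and Mocs3 were added after their values were seen. The other low genes were Mthfd2, a mitochondrial folate enzyme (−0.39 with S100a8), and Chac1, which degrades glutathione (−0.36 with S100a9). Of the 9 compared sulphur genes that were not members, 5 were above control and 4 below with each protein. Over all compared genes 52.5% were above control with S100a8 and 51.2% with S100a9. The median log2 ratios of the 9 were 0.054 with S100a8 and 0.012 with S100a9. Ethe1, the persulphide dioxygenase that acts between Sqor and Suox and was named after its values were seen, had 847 and 838, against 705 in the control (0.27 and 0.25).

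The arrays also differed outside these genes. On the S100a8 array dim signals were raised: the median log2 ratio to control was 0.14 over the dimmest 25% of compared genes and −0.0047 over the brightest 25%. With S100a9 these medians were 0.00 and 0.0074. Of the 35 members 24 were among the brightest 25%, where their medians were 0.086 with S100a8 and 0.075 with S100a9. The 27 poly-A spike-in probe sets, added before labelling, had medians of 0.12 with S100a8 and 0.28 with S100a9, beside 0.13 and 0.11 for the members. The 18 hybridization spike-ins had 0.019 and −0.013. The part of these shifts in the members' values was not tested.

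**Figure D4:**
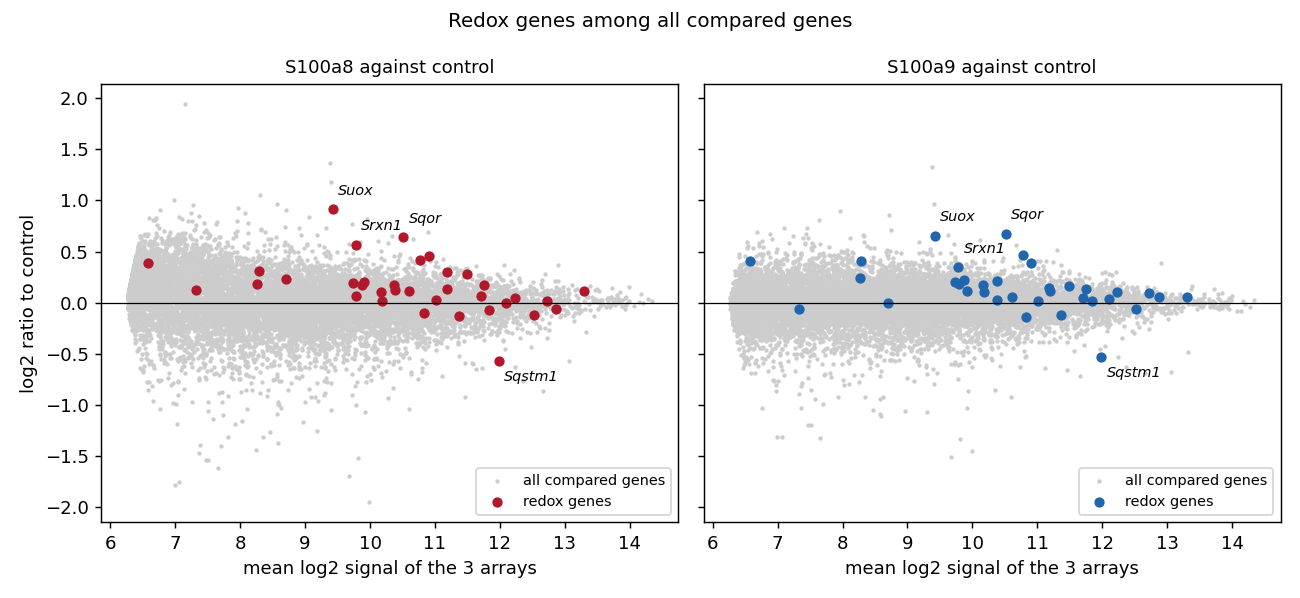
Log2 ratio to control against the mean log2 signal of the 3 arrays for all 11138 compared genes (grey) and the 35 redox genes (red for S100a8, blue for S100a9). Suox and Sqor lie near the upper edge of the genes of their brightness and Sqstm1 near the lower edge, and most other members lie inside the grey cloud.

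Markers of the labelled cell type and of other cells were checked on the same scale. Of 7 colon epithelial markers, Krt18, Epcam and Cdx2 were above the floor on each array, while Krt8, Krt19, Cdh1 and Vil1 were below it. The list summed to 1443 with S100a8 and 1595 with S100a9, against 1791 in the control, and Krt18, which makes up most of the sum, was at −0.49 and −0.23 in log2. Of 11 macrophage and granulocyte markers with a probe set 5 were above the floor, and their defining genes Ptprc, Adgre1 and Itgam were below it. The summed signal of that list was 2412 with S100a8 and 2669 with S100a9, against 2408 in the control, and Cd14 made up the largest share of it. Cd14 was at −0.39 with S100a8 and 0.0053 with S100a9. The other 4 were above control with both proteins: Cd68 at 0.63 and 0.53, Cd53 at 0.48 and 0.59, Csf1r at 0.47 and 0.23 and Lyz2 at 0.20 and 0.45. Over these 5 the median log2 ratios were 0.47 and 0.45, larger than those of the members. The 8 fibroblast markers summed to 10828 and 11879, against 12067 in the control, most of it from Col1a2 (−0.016 and 0.070). Of the 6 compared, 6 were below control with S100a8 and 5 with S100a9. Over all 11138 compared genes 5290 and 5354 were below control. The median log2 ratios of the 6 were −0.49 and −0.17. Pdgfrb was at −0.92 and −0.76, Dcn at −0.92 and −0.28 and Pdgfra at −0.69 and −0.17, so with S100a8 these 3 lay further below control than Sqstm1. The 6 endothelial markers summed to 461 and 398, against 385 in the control. The 5 lymphoid markers with a probe set summed to 1115 and 919.7, against 984 in the control. Their part in the members' values was not tested, and in bulk RNA fewer cells of a type and less RNA per cell cannot be told apart.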

How the data were processed

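Total RNA of 3 cultures was measured, 1 array each. The deposited values are probe set intensities on a linear scale from 0.72 to 21962, made by the authors with MAS5, per the submitters' processing notes; no version or scaling target is stated in the labels. Genes were named from the platform annotation, 34945 probe sets having 1 symbol. The 64 control probe sets were used for spike-ins only. Ratios on the log2 scale were calculated from the intensities, as deposited, with Python 3.11.15, numpy 2.4.6 and pandas 2.3.3. The floor was the 50th percentile of all values without control probe sets. A gene was its probe set of highest mean log2 signal, compared if that mean exceeded the floor. Groups came from the labelled agent. The scripts were tested on simulated data.

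All members are named. Of the other pathway genes, those named have the 3 highest or 3 lowest ratios per comparison with control, both arrays being above the floor, apart from Ethe1, Gphn and Mocs3, which were added after their values were seen. The members and lists were chosen with earlier results of these data known. RefSeq windows were matched by symbol. Alternatives were 3 scalings, 3 floor settings, no filter, 2 rules for probe sets, a 1.5-fold size and, added after seeing the data, the filter first used. With 1 array per group, their number limits the precision.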

Additional observations from a re-analysis of the deposited data

Results flagged for a closer look

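For 5 members the ratio to control had opposite signs with the 2 proteins. With 1 array in each group this difference was not tested, and no explanation was weighed. The log2 ratio of S100a8 over S100a9 was 0.23 for Hmox1, 0.18 for Nqo1, −0.12 for Sod1, −0.096 for Nfe2l2 and −0.045 for Prdx4. Each is below 0.32 in size, and the opposite signs rest on the brightest probe set. For Hmox1 the S100a9 value lay almost at control (−0.0024), and for Prdx4 the S100a8 value did (−0.0037). With each array centred on its median, these became 0.0049 for Hmox1 and 0.039 for Prdx4, so that both ratios of each gene were above 0. With the mean of probe sets, Sod1 was below control with S100a9 too (−0.0050), and Prdx4 was above control with S100a8 (0.17). The dimmer probe set of Nfe2l2 was below control with both proteins (−0.28 and −0.018).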

How the results depend on the processing

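No paired analysis was possible because each group holds 1 array, and no array could be left out for the same reason. Over 10 settings of scaling, floor, filter and probe set choice, the members' median log2 ratio to control stayed between 0.12 and 0.17 for S100a8 and between 0.10 and 0.12 for S100a9, and the number of members above control between 27 and 29 and between 25 and 30. Between 33 and 35 members were compared in each setting. Over all compared genes the share above control ran from 34.5% to 60.7% with S100a8 and from 31.7% to 57.6% with S100a9. The lowest share for each protein came without the filter on dim genes. There, genes below the floor on both arrays tie at a ratio of 0 and count as not above control. Apart from that setting the lowest shares were 47.6% with S100a8 and 49.3% with S100a9. Sqstm1, Blvrb, Taldo1 and Suox stayed at least 0.32 from control in log2, on the same side, in each of the 10 settings with either protein. Blvrb, Taldo1 and Suox have 1 probe set each, so the probe set rules could not change them. Their signals lay well above the floor, so only the 3 scalings could move them by more than a trace. Genes with further probe sets faced a harder check. Members at least 0.32 above control with S100a8 numbered between 4 and 9 over these settings, in place of 6. The share over all compared genes ran from 5.48% to 12.7%, in place of 9.48%. With S100a9 they numbered 4 in place of 7 when all probe sets of a gene were averaged, beside 2.15% of all compared genes. With probe sets of unspecific or variant endings taken last they also numbered 4, beside 3.30%. With the 1.5-fold size, 2 members were higher and 0 lower with each protein, in place of 6 and 1 for S100a8 and 7 and 1 for S100a9. Srxn1 was at 0.26 with S100a8 and 0.25 with S100a9 under the second probe set rule, and at 0.34 and 0.19 with the mean. Sqor was not compared under the second probe set rule. With the mean, which takes in a probe set below the floor, it was at 0.319 with S100a8, just below the descriptive size, and at 0.337 with S100a9. For S100a8 over S100a9, the median of −0.015 changed sign to 0.020 with median centring, 0.0070 with centring by brightness, 0.0061 with the mean of probe sets and 0.0063 with the second probe set rule, and 1 member in place of 0 was at least 0.32 higher with the mean. The cause was not tested. Of 1038 single-gene values, 1028 moved by less than the spread between probe sets of a gene and 10 by more, and 0 values past 0.32 changed sign. Many of these values could hardly move, so the count of 1028 is no measure of stability. All 35 members lay above the floor on each array, and the floor and filter settings left the compared ratios almost unchanged. The probe set rules could not move the 9 members with 1 probe set. A first version of the filter took control probe sets into the floor and judged genes by the mean of floored values. It was replaced by the stricter rule after its results had been seen, so this alternative was chosen after seeing the data. It compared 11701 genes in place of 11138, with the same counts of members in each direction. Signals near the floor limit Slc7a11 most.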
